A study of Mus musculus with 5 samples.

Results

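Skin is 1 of the 8 columns in a table of mean expression that the authors deposited for clusters of Vγ6 γδ T cells, and the only one named for skin. The members were the genes of that column: 9648 of the 10721 genes in the table had a mean above 0 in Skin, and 2424 reached at least 0.5. Each column sums to 10000, so a value is a gene's share of the mean cell's transcripts per 10000. The other 7 columns were named Thy_1 to Thy_5 for thymus and pLN_1 and pLN_2 for peripheral lymph node. Skin was set against all of them, first against the thymus column most like it.

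The series sorted γδ T cells by flow cytometry for their Vγ4 or Vγ6 receptor chain and sequenced single cells in droplets (Chromium 3' v2), tagging each transcript with a unique molecular identifier (UMI). It holds 5 libraries, 1 per group: Vγ6 cells of ear skin, thymus and peripheral lymph node and Vγ4 cells of ear skin, all from C57BL/6 mice aged 8 weeks, and a pool of Vγ6 cells. The pool joined lymph node cells of TcrdCreER mice, thymus cells of ACT-FLPe mice and ear skin cells of TcrdH2BeGFP mice, aged 8 to 10 weeks, with no map from cells to tissue. Ear skin went through a 75-minute digest with collagenase IV and DNaseI at 37 °C. Thymus cells were held for 30 minutes at the same temperature with complement and antibodies that remove CD4 and CD8 cells. For lymph node no warm step was stated, so tissue and preparation cannot be told apart. The labels give neither the number of mice behind a library nor their sex. With 1 mean per cluster and 1 library per tissue there was no replicate, no difference could be tested, and every call below is a call by size.

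Vγ6 γδ T cells leave the thymus around birth, settle in the dermis and other barrier tissues, and keep a type 17 programme under transcription factors such as c-Maf. On stimulation by IL-1, IL-23 or their receptor they release IL-17A and IL-17F, cytokines that act on epithelium and draw in neutrophils. NF-κB, a family of transcription factors held back by IκB proteins until a receptor signals, drives many genes of inflammation and survival in T cells.

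The column could be set beside the cells of the skin Vγ6 library. Of 812 barcodes in that library, 687 had at least 200 genes and at most 10% mitochondrial UMIs, with 793463 UMIs in all and a median of 1059 UMIs per cell, and a level of 0.5 per 10000 stood for about 39.7 UMIs there. This was the shallowest of the 5 libraries. The median was 2156 UMIs in thymus Vγ6 cells and 1775.5 in lymph node Vγ6 cells. More than 10% mitochondrial UMIs were found in 120 of the 812 skin Vγ6 barcodes and in 216 of 1394 of skin Vγ4. In lymph node Vγ6 this held for 2 of 1461 barcodes, and in thymus Vγ6 for 32 of 2549. The mitochondrial genes summed to 568 per 10000 in Skin and to between 356 and 533 in the other columns; with these and the ribosomal protein genes left out, 385 genes were at least 2-fold higher and 541 lower in Skin than in the closest thymus column, against 332 and 406 with them. Over the 4267 genes with at least 0.5 in any column, Skin and the mean of the skin Vγ6 library had a Pearson correlation of 0.995 on the log2 scale, and 99.3% of these genes lay within 1.5-fold. No gene was at least 2-fold above the library in the column and 14 were at least 2-fold below it. These 14 included genes of natural killer and cytotoxic cells (Klrd1, 0.0292 in the column and 0.365 in the library; Nkg7, 0.235 and 0.989; Xcl1, 0.0448 and 0.386), Ctla2a (0.221 and 1.44) and the class II genes H2-Ab1, H2-Aa and H2-Eb1. H2-Eb1 was listed at 0 in the column and averaged 0.231 in the library. The column thus held these transcripts at lower levels than all kept cells did, and which cells entered it is not given in the sources used here.

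**Figure D1:**
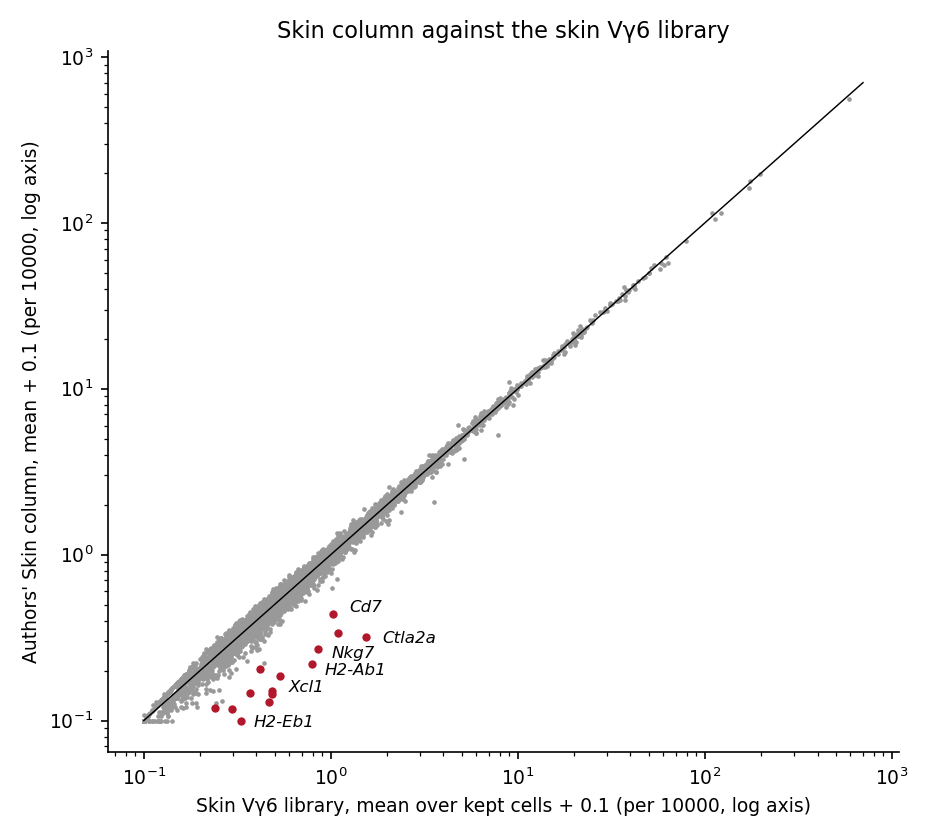
Mean expression of 4267 genes in the authors' Skin column (vertical, log axis, per 10000 plus 0.1) against the mean over 687 kept cells of the skin Vγ6 library (horizontal, same scale). The line marks equal values, and the 14 red points are the genes at least 2-fold lower in the column, among them Ctla2a, Nkg7, Cd7, H2-Ab1, Xcl1 and H2-Eb1.

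Markers of type 17 γδ T cells were present in the column. Of 16 such genes 14 reached 0.5 per 10000 in Skin. The list holds Furin, Bcl2a1b and Il17f, given as the cluster's own markers, and with them it summed to 148 in Skin, 94.1 in Thy_2, 121 in pLN_1 and between 33.5 and 74.8 in the other 5 columns. The remaining 13 genes summed to 75.3 in Skin, 88.6 in Thy_2, 117 in pLN_1, 71.8 in pLN_2 and between 33.4 and 45.5 in the other thymus columns. Without the 3 markers the sum in Skin thus lay below those in Thy_2 and pLN_1. Cd163l1, a scavenger receptor typical of Vγ6 cells, stood at 8.16 in Skin, 11.0 in Thy_2 and 10.7 in pLN_1. Markers of other skin cells were low or outside the table: keratinocyte markers (3 of 9 in the table) summed to 0.436 in Skin and to between 0.350 and 1.28 elsewhere, and no fibroblast, neutrophil or melanocyte marker was in the table, with 0 UMIs of each list in the skin Vγ6 library. Dendritic and myeloid markers (9 of 10 in the table) summed to 4.81 in Skin, within their range of 2.51 to 44.5 in the others. The markers of αβ T cells and thymocytes summed to 0.102 in Skin, against 10.3 in Thy_5 and between 0.0938 and 1.23 in the other 6. The erythroid sum of 0.981 in Skin, against 0 to 0.379 elsewhere, was the only sum among the lists of other cell types to be highest in Skin, and the source of this RNA was not tested.

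The thymus column closest to Skin was Thy_2. Across the 4267 genes the Pearson correlation of log2 means with Skin was 0.86 for Thy_2, against 0.75 for Thy_4, 0.74 for pLN_1 and Thy_3, 0.71 for Thy_1, 0.67 for pLN_2 and 0.64 for Thy_5. The mean absolute log2 difference put Thy_2 first as well, at 0.67 against 0.84 to 1.04 for the others. Both measures put Skin nearer to Thy_2 than to either lymph node column. These are descriptions over genes of columns that share their genes and the authors' scaling, without a test.

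Between Skin and Thy_2, 332 of 3006 genes with at least 0.5 per 10000 in either column were at least 2-fold higher in Skin (11.0%) and 406 were at least 2-fold lower (13.5%), on the scale log2(mean + 0.1). The median log2 ratio of Skin over Thy_2 was −0.15, and centring on it gave 424 higher and 311 lower genes. Skin was at least 2-fold above all 7 others in 166 of 2424 genes (6.85%) and at least 2-fold below all 7 in 91 of 1665 genes (5.47%). By the same rule pLN_2 had 87 genes above and 9 below, Thy_4 38 and 0, Thy_5 33 and 20, and no other column more than 21 above or 2 below. These counts cannot be ranked on equal terms, since Skin was the only column of its tissue, whereas each thymus column was set against 4 others of thymus and each lymph node column against 1 of lymph node.

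For 71 of the 166 genes highest in Skin (42.8%), Thy_2 was the next highest column, whereas it was the highest of the other 7 columns for 332 of all 2424 genes that reached 0.5 in Skin (13.7%). The median of the 166 genes was 2.15 per 10000 in Skin, 0.493 in Thy_2 and between 0.195 and 0.326 in the other 6 columns. The 91 genes lowest in Skin had a median of 0.296 in Skin, 1.18 in Thy_2 and between 1.22 and 1.63 in the others. The next lowest column was Thy_4 for 23 of the 91 genes and Thy_2 for 20, with nearly equal medians of 1.22 and 1.18. Thy_2 was thus the most frequent neighbour of Skin among the 166 genes but not among the 91. The choice of the sets fixes that Skin is the extreme, and Thy_2 was chosen as closest over genes that include them.

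**Figure D2:**
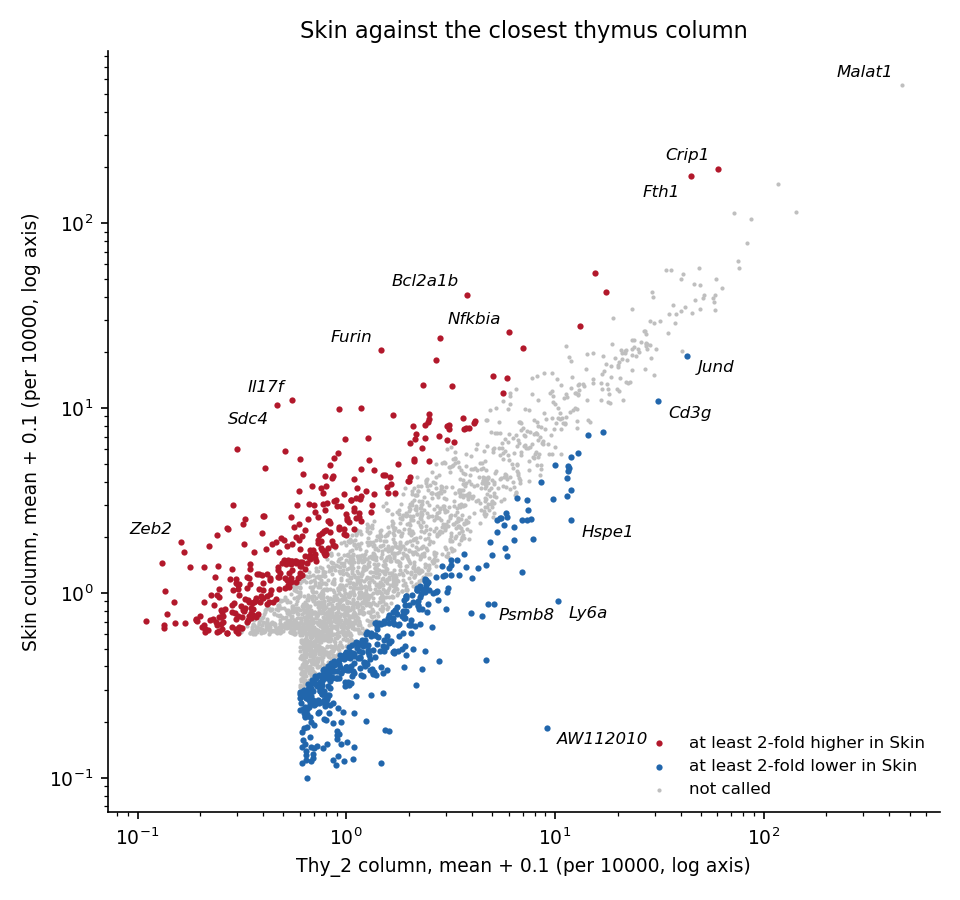
Mean expression in Skin (vertical) against Thy_2 (horizontal) for 3006 genes with at least 0.5 per 10000 in either column, both as mean + 0.1 on log axes. The 332 red points are at least 2-fold higher in Skin, with Sdc4, Il17f and Furin farthest out, and the 406 blue points at least 2-fold lower, with AW112010 and Ly6a farthest out.

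The 3 markers of the cluster covered a cytokine, a protease and a survival factor. Il17f, the type 17 cytokine, stood at 10.9 in Skin, 0.452 in Thy_2, 0.0616 in Thy_4, 0.017 in Thy_1, 0.0203 in pLN_1 and 0.0249 in pLN_2, and was listed at 0 in Thy_3 and Thy_5. Furin, a convertase that cuts precursor proteins such as pro-TGF-β, stood at 20.4 in Skin, 1.37 in Thy_2, 0.205 in Thy_1, 0.0694 in Thy_3, 0.478 in Thy_4, 0.0175 in Thy_5, 0.82 in pLN_1 and 0.582 in pLN_2. Bcl2a1b, a copy of the anti-apoptotic A1 gene, stood at 41.0 in Skin, 3.70 in Thy_2, 0.179 in Thy_1, 4.56 in Thy_3, 1.47 in Thy_4, 0.101 in Thy_5, 3.52 in pLN_1 and 2.47 in pLN_2. All 3 were higher in Skin than in each of the other 7 columns, with log2 ratios of Skin over Thy_2 of 4.32, 3.80 and 3.43 in that order. The nearest column was Thy_2 for Il17f and Furin and Thy_3 for Bcl2a1b.

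Cytokine genes were mostly higher in Skin, with 1 exception among the type 17 cytokines. Of 10 measured cytokine genes (at least 0.5 per 10000 in Skin or Thy_2), 7 were called higher and 2 lower than in Thy_2, with a median log2 ratio of 1.72; without Il17f, a marker of the cluster, 6 of 9 were higher and the median was 1.51. Over all 3006 genes measured in Skin or Thy_2, 11.0% were higher and 13.5% lower than in Thy_2, the base for each list set against Thy_2. Against pLN_1, 8 of the 10 were higher and none lower. Over the same 3006 genes measured in Skin or Thy_2, 496 were higher than in pLN_1 (16.5%) and 561 lower (18.7%), and this is the base for each list set against pLN_1. Over the 3328 genes measured in Skin or pLN_1 these shares were 14.9% and 24.5%. Il17a stood at 6.81 in Skin, 1.18 in Thy_2 and at most 0.149 in the other columns, and Areg, which encodes the epithelial growth factor amphiregulin, at 6.66, 0.883 and at most 0.455. Both were thus higher in Skin than in any other column, by a log2 ratio over Thy_2 of 2.44 and 2.78. Tnf (1.62 in Skin and 0.315 in Thy_2) and Tnfsf11, which encodes RANKL (3.25 and 1.07), were also above all 7 columns; these genes, like others marked here as chosen by value, were named after their values had been seen. Il22, whose product acts on epithelium, went the other way among the 2 columns in which it was measured: it stood at 1.51 in Skin and 4.91 in Thy_2 (log2 ratio −1.64), and at most at 0.139 elsewhere. Hbegf, another epidermal growth factor family gene, was at 0.039 in Skin, 0.542 in Thy_2 and at most 0.0999 in the others. Of the chemokines, Cxcl2, which attracts neutrophils, stood at 5.91 in Skin, 0.198 in Thy_2 and at most 0.023 in the other 5 columns.

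Il17f transcripts were concentrated in few cells of the skin Vγ6 library. At least 1 UMI of Il17f was found in 115 of 687 cells (16.7%, exact 95% interval 14.0 to 19.7, counting error only), and the 69 cells with the most held 94.3% of its UMIs. For Il17a 20.8% of the cells had a UMI and the top 69 cells held 85.4%. For Cxcl2 these shares were 21.3% and 80.5%, and for Areg 22.4% and 79.1%. Il22 had 121 UMIs in 54 cells, and 1 cell held 49 of these UMIs. Furin and Bcl2a1b were spread over the cells: 76.3% and 88.8% had a UMI, and the top 69 cells held 32.2% and 29.7% of the UMIs. Lymph node Vγ6 cells, with a median of 1775.5 UMIs against 1059 in skin, had an Il17f UMI in 0.274% of cells, a Cxcl2 UMI in 0.137%, an Il17a UMI in 1.92%, a Furin UMI in 15.6% and a Bcl2a1b UMI in 47.0%. That library holds little cytokine RNA, so these shares do not give the background from free RNA in the skin library, which was not measured here. At this depth the cytokine UMIs of skin Vγ6 cells lay in a minority of the cells, and those of Furin and Bcl2a1b in most of them.

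**Figure D3:**
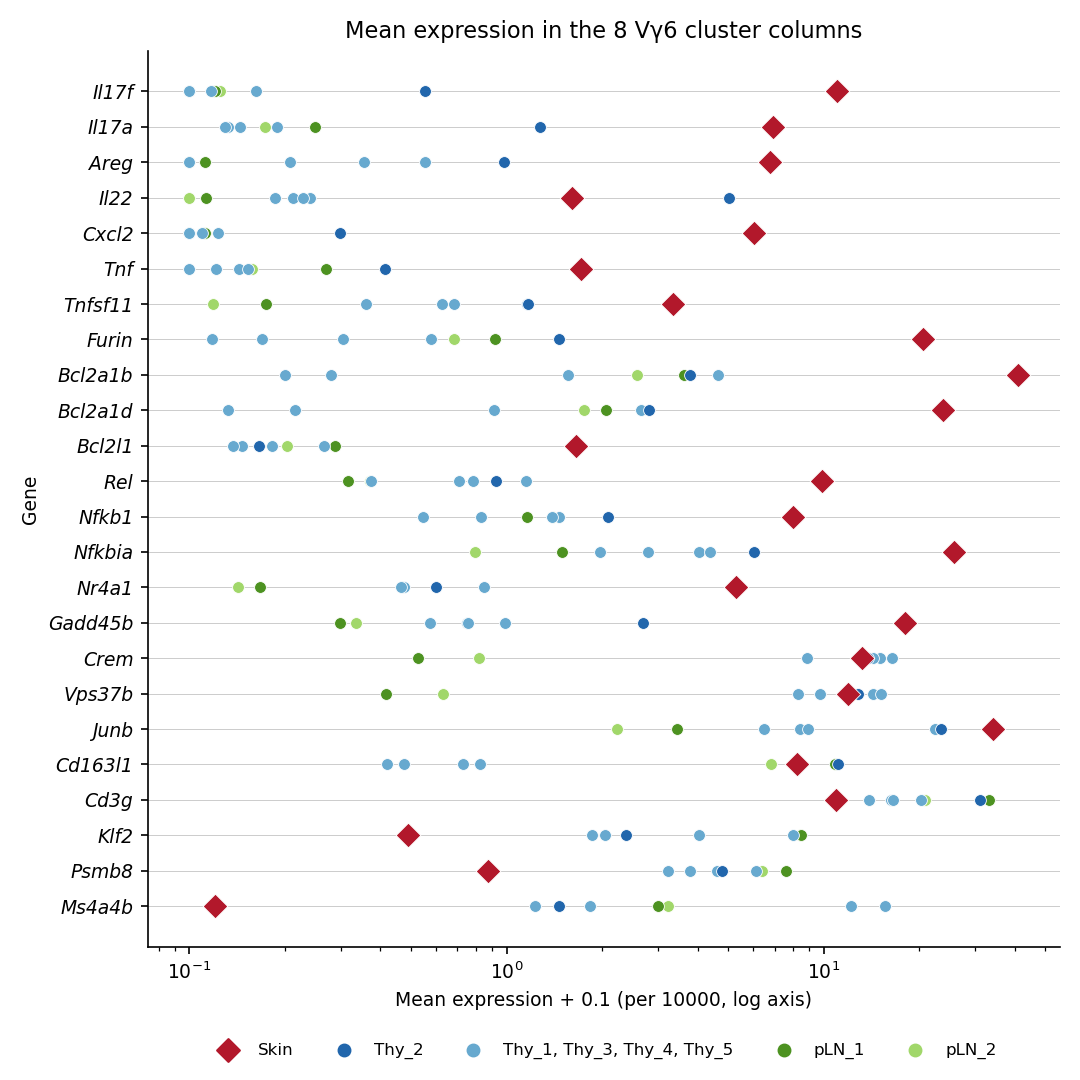
Mean expression plus 0.1 (per 10000, log axis) of 24 genes in the 8 columns, with Skin as red diamonds, Thy_2 in dark blue, the other 4 thymus columns in light blue and the lymph node columns in green. Il17f, Furin and Bcl2a1b lie far right in Skin, Il22 is highest in Thy_2, Crem and Vps37b separate lymph node from all other columns, and Klf2, Psmb8 and Ms4a4b lie far left in Skin.

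Genes of NF-κB and its targets were higher in Skin as a group. Of 16 measured members, 11 were at least 2-fold higher than in Thy_2 and none lower, with a median log2 ratio of 1.38, and 9 were above all 7 columns; against pLN_1, 15 were higher. Rel, which encodes the c-Rel subunit, stood at 9.78 in Skin, 0.824 in Thy_2 and between 0.217 and 1.05 in the other 6. Traf1, an adaptor of TNF receptors, stood at 5.63 in Skin and 0.817 in Thy_2. Icam1, an adhesion molecule, stood at 4.06 and 0.751, and Nfkbiz, an atypical IκB needed for parts of the type 17 response, at 2.51 and 0.304. Each of these 4 was at least 2-fold above its highest other column, so the difference did not rest on the choice of Thy_2. Nfkb1 (7.90 in Skin and 2.00 in Thy_2) and Nfkbia, which encodes the inhibitor IκBα (25.7 and 5.92), were among the 11 and are named by value. Rela, the subunit that is mainly controlled at the protein level, was not called, at 0.938 in Skin and 0.759 in Thy_2, and neither were Nfkb2, Nfkbib, Nfkbie and Tnip1.

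Of the Bcl2 family, which governs cell survival, 3 A1 copies and Bcl2l1 were higher in Skin than in Thy_2. The list also held Cflar, which is not of that family and was higher too. These were 5 of 8 measured list members, with none lower and a median log2 ratio of 2.16. The median was 1.25 without the cluster marker Bcl2a1b. Without the 3 A1 copies it was 0.56, and 2 of the remaining 5 genes, Bcl2l1 and Cflar, were higher. The A1 copies Bcl2a1d (23.7 in Skin, 2.72 in Thy_2 and 1.96 in pLN_1) and Bcl2a1a (5.78, 0.408 and 1.18) joined Bcl2a1b. Bcl2a1c, an A1 gene that the list did not hold, stood at 1.28 in Skin and 0.0786 in Thy_2. Bcl2l1, which encodes Bcl-xL, stood at 1.56 in Skin, 0.0663 in Thy_2 and at most 0.187 in the other columns. Cflar, which encodes an inhibitor of death-receptor signalling, stood at 1.36 in Skin and 0.514 in Thy_2. The A1 copies are nearly identical in sequence, and how reads matching several of them were counted is not given in the sources used here, so the split among the copies is uncertain. Among genes that promote cell death, 2 were not called: Bcl2l11, which encodes Bim, stood at 0.982 in Skin and 1.17 in Thy_2, and Bax at 2.05 and 3.49.

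The promoters of 4 of these genes are shown because the A1 genes and the NF-κB genes were together among the 166 highest in Skin. Each runs from 250 bases before the gene's start to 50 bases after it, 5′ to 3′ on the gene's strand, from RefSeq on GRCm38.p6. Capitals mark matches of GGGANNTTCC in Cxcl2 (chr5:90903649-90903948, plus strand, 2 matches that overlap) and Nfkbia (chr12:55492598-55492897, minus strand). This pattern is a narrow form of the NF-κB site, since it fixes bases that vary among such sites. In Bcl2a1b (chr9:89199023-89199322, plus strand) and Bcl2a1d (chr9:88731801-88732100, minus strand) they mark TGANTCA. This pattern is looser than the core of AP-1 sites, since it allows any base in the middle, where the core has C or G. The marked stretch is TGAATCA in both, so it matches the loose pattern and not the core.
Cxcl2: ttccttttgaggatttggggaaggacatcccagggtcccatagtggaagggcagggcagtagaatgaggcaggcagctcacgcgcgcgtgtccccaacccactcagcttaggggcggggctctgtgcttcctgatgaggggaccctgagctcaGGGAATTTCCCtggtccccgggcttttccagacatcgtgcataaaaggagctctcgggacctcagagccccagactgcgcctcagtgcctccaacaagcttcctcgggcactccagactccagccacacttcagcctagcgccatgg
Nfkbia: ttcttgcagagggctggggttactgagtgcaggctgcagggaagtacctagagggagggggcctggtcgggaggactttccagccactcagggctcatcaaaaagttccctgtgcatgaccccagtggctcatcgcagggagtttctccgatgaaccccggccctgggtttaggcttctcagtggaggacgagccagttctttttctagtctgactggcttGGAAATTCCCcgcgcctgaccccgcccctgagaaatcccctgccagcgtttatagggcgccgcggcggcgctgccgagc
Bcl2a1b: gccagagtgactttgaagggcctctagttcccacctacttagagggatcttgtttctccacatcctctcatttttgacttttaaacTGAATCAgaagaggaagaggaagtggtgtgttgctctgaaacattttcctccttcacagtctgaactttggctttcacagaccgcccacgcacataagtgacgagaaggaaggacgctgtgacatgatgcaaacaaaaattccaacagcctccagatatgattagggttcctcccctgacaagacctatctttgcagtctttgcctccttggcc
Bcl2a1d: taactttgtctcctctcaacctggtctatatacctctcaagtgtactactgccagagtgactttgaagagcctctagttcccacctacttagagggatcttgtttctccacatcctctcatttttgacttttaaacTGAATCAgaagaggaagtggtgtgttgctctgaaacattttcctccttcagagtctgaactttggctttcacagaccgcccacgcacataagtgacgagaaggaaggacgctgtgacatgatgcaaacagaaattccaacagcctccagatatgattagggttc

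Both motifs were searched on both strands of all RefSeq promoters of this length, and 130 of the 166 genes had at least 1, with 179 promoters in all. GGGANNTTCC was in 4 of the 179 (2.23%), those of Cxcl2, Nfkbia, Vps8 and Tgif1, against 1.43% of 2380 promoters of the genes with at least 0.5 in Skin and 1.47% of all 32851. TGANTCA, with any middle base counted, was in 21 of the 179 (11.7%), including Bcl2a1a, Bcl2a1b, Bcl2a1d, Il17a and Tnfaip3, against 5.38% and 7.81%. The printed promoters of Bcl2a1b and Bcl2a1d are near copies, so their matches are not independent. Neither of these promoters holds GGGANNTTCC, and wider forms of the NF-κB site were not searched. The cyclic AMP response element TGACGTCA was in 3.35%, against 4.16% and 1.79%. These shares are descriptions of letters in a short window, without a test, and say nothing of whether a factor binds there.

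Early genes of receptor signalling and their feedback regulators divided by group. Of 12 measured early genes 8 were higher in Skin than in Thy_2 and none lower (median log2 ratio 1.98), and all 8 were above the 7 columns. Nr4a1, an early target of T cell receptor signals, stood at 5.18 in Skin, 0.498 in Thy_2, between 0.364 and 0.751 in the other thymus columns and at 0.0668 in pLN_1. Cd69, which keeps T cells in tissue, stood at 9.12 in Skin, 1.57 in Thy_2 and 1.84 in pLN_1. Of 20 feedback regulators 12 were higher and Socs3 alone was lower (median 1.18), with Gadd45b at 18.0 in Skin, 2.59 in Thy_2 and 0.198 in pLN_1. Ier2 (7.68 in Skin and 6.94 in Thy_2) and Crem (13.1 and 13.7) were among those not called.

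AP-1 genes did not follow this pattern against Thy_2. Of 11 measured members none was called higher and 1, Jund, was lower, at 19.1 in Skin and 43.0 in Thy_2; the median log2 ratio was 0.50. Fos stood at 2.83 in Skin and 3.01 in Thy_2, and Junb at 34.0 and 23.4. Against pLN_1, where Fos was at 0.745 and Junb at 3.34, 9 of the 11 were higher in Skin. Heat shock genes were similar: none of 12 was higher than in Thy_2 and 4 were lower, whereas 8 were higher than in pLN_1, Hspa1a standing at 8.53 in Skin, 14.2 in Thy_2 and 0.449 in pLN_1. AP-1 and heat shock genes respond to warm tissue preparation, which was 75 minutes for skin, 30 minutes for thymus and not stated for lymph node. The part of this preparation in these values was not tested, nor was its part in those of the NF-κB, early and feedback genes.

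Furin stood among other genes of TGF-β, the cytokine that Furin activates. Of 6 measured members of this list, Furin included, 4 were higher than in Thy_2 and none lower, and without Furin 3 of 5 were higher; the median log2 ratio was 1.24 either way. Tgfb1 stood at 3.80 in Skin and 1.54 in Thy_2, Tgif1, a repressor of TGF-β targets, at 3.34 and 1.26, and Smad7, a pathway inhibitor, at 0.936 and 0.338. Against pLN_1 all 6 were higher, Furin included.

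Transcription factors of the type 17 programme were mixed. Of 14 measured regulators 4 were higher than in Thy_2 and 3 lower (median 0.30), beside 11.0% higher and 13.5% lower among all 3006 genes. Maf, which encodes c-Maf, stood at 6.34 in Skin, 1.92 in Thy_2 and 7.0 in pLN_1, and Irf4, an early factor of activated T cells, at 0.574, 0.0334 and 0.0337. Maf in Skin thus lay close to its level in pLN_1, whereas Irf4 reached 0.5 in no other column. The lower ones were Tmem176b (1.84 in Skin, 6.28 in Thy_2, 6.94 in pLN_1 and between 0.198 and 0.484 in the other thymus columns), its neighbour Tmem176a and the kinase gene Blk.

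Receptor genes set Skin apart at the IL-2 receptor α chain. Il2ra stood at 4.66 in Skin, 0.306 in Thy_2, 0.488 in pLN_1 and at most 0.18 in the others. Il23r (2.93 in Skin and 2.21 in Thy_2) and Il1r1 (0.727 and 0.852), which encode the receptors for the cytokines that trigger type 17 γδ T cells, were not called, and Il7r was lower, at 3.08 and 7.22. Of 13 measured cytokine receptor genes 3 were higher and 2 lower, beside 11.0% higher and 13.5% lower among all 3006 genes. Sdc4, a heparan sulphate carrier of the cell surface, had the highest ratio of all called genes, at 10.2 in Skin, 0.365 in Thy_2, 0.334 in pLN_1, 0.157 in pLN_2 and at most 0.0884 in the other 4 thymus columns (log2 ratio over Thy_2 4.48).

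Among genes of T cell receptor signalling, the CD3 chains and Lck were lower in Skin than in Thy_2. Of 11 measured members, which include kinases and adaptors, 4 were lower, 2 higher and 5 not called, with a median log2 ratio of −0.50, and against pLN_1 3 were lower and 3 higher. Cd3g stood at 10.8 in Skin, 30.9 in Thy_2, 33.2 in pLN_1 and between 13.8 and 20.8 in the other columns. Cd3d stood at 4.67 in Skin and between 7.43 and 12.4 in the others, and Cd3e at 4.78 and between 8.09 and 11.4. These 3 genes therefore had their lowest mean in Skin, although none was 2-fold below all 7 columns. Lck, the kinase that phosphorylates CD3, stood at 0.0527 in Skin, 0.709 in Thy_2, 0.162 in pLN_1 and between 4.01 and 4.95 in the other thymus columns. The higher ones included the adaptor gene Lcp2 (2.87 in Skin and 0.478 in Thy_2).

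Interferon-induced genes were lower in Skin throughout the measured list. All 9 measured members, of 23 genes in the list, were at least 2-fold lower than in Thy_2, with a median log2 ratio of −1.73. Against pLN_1 6 were lower. A gene low in Skin was measured only if it reached 0.5 in Thy_2, which favours lower calls. Bst2, an antiviral membrane protein, stood at 0.362 in Skin, 1.83 in Thy_2 and between 0.967 and 2.24 in the others. Ifi27l2a stood at 0.0311 in Skin, 0.813 in Thy_2 and between 0.482 and 10.0 elsewhere. The immunoproteasome subunits, which trim peptides for class I molecules and are interferon-induced, were lower too: Psmb8 stood at 0.775 in Skin, 4.67 in Thy_2 and between 3.14 and 7.49 in the others, and Psmb10 at 0.079, 1.51 and between 0.883 and 2.80. The 29 measured genes of the constitutive proteasome included none called either way (median −0.26), and the class I chains differed little, H2-K1 standing at 9.96 in Skin and 12.4 in Thy_2 and B2m at 39.1 and 51.2.

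Of 7 measured circulation genes 3 were lower in Skin than in Thy_2 and none higher (median −0.58), and against pLN_1 3 were lower and 2, Satb1 and Foxo1, higher. Klf2, the factor that sustains exit from tissue into blood, stood at 0.388 in Skin, 2.27 in Thy_2, between 1.76 and 7.92 in the other thymus columns, 8.40 in pLN_1 and 8.30 in pLN_2. S1pr1, its target and the receptor for exit, stood at 0.213 in Skin, 0.884 in Thy_2 and between 0.544 and 2.95 elsewhere. Both were below all 7 columns. Of 7 residency genes 2, Cd69 and Cxcr6, were higher and none lower, beside 11.0% higher and 13.5% lower among all 3006 genes. Cxcr6, a chemokine receptor of tissue T cells, stood at 27.7 in Skin, 13.1 in Thy_2 and 32.1 in pLN_1.

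AW112010 and some genes of lymphocyte membranes were also below all 7 columns. AW112010 stood at 0.0869 in Skin, 9.02 in Thy_2 and between 1.68 and 15.9 in the others (log2 ratio over Thy_2 −5.61). Ms4a4b, which encodes a membrane protein of T cells, stood at 0.0206 in Skin, 1.37 in Thy_2 and between 1.13 and 15.5 elsewhere, and its neighbour Ms4a6b at 0.0464, 0.988 and between 1.04 and 4.73. Of 8 genes of the GIMAP family, GTPases of lymphocyte survival, 3 were measured, and all 3 were lower. Gimap6 stood at 0.0531 in Skin and 0.838 in Thy_2, Gimap9 at 0.0664 and 0.568, and Gimap1 at 0.147 and 0.738. These 3 reached 0.5 in Thy_2 and not in Skin, so they could not have been called higher. The other GIMAP genes reached 0.5 in neither. The 2 Ms4a and 3 Gimap genes named here were all below the 7 columns. Ly6a, which encodes Sca-1, stood at 0.806 in Skin, 10.2 in Thy_2 and between 0.484 and 1.59 in the others, so that its mean in Skin lay within the range of the 6 columns other than Thy_2.

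Of 18 measured genes of endoplasmic reticulum stress and folding, 9 were lower in Skin than in Thy_2 and none higher (median −1.11), and against pLN_1 8 were lower and 4 higher. Among them Pdia4 stood at 0.653 in Skin, 4.37 in Thy_2 and between 1.11 and 7.01 in the others, and Manf at 3.24, 11.3 and between 3.57 and 13.2. Of 38 genes of oxidative phosphorylation 4 were lower and none higher (median −0.50), a smaller share than the 13.5% lower among all 3006 genes. Of 14 genes of glycolysis and hypoxia 2 were higher and none lower, beside 11.0% higher among all 3006 genes. The list median was −0.15, the same as over all genes. Of the 2, Hk2, the inducible hexokinase, stood at 4.85 in Skin, 1.66 in Thy_2 and 0.243 in pLN_1. Hilpda, a hypoxia-induced protein of lipid droplets, stood at 6.48, 3.19 and 0.289. Odc1, the rate-limiting enzyme of polyamine synthesis, stood at 13.2 in Skin, 2.24 in Thy_2 and between 0.254 and 1.38 in the others. None of 84 ribosomal protein genes was called against Thy_2.

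**Figure D4:**
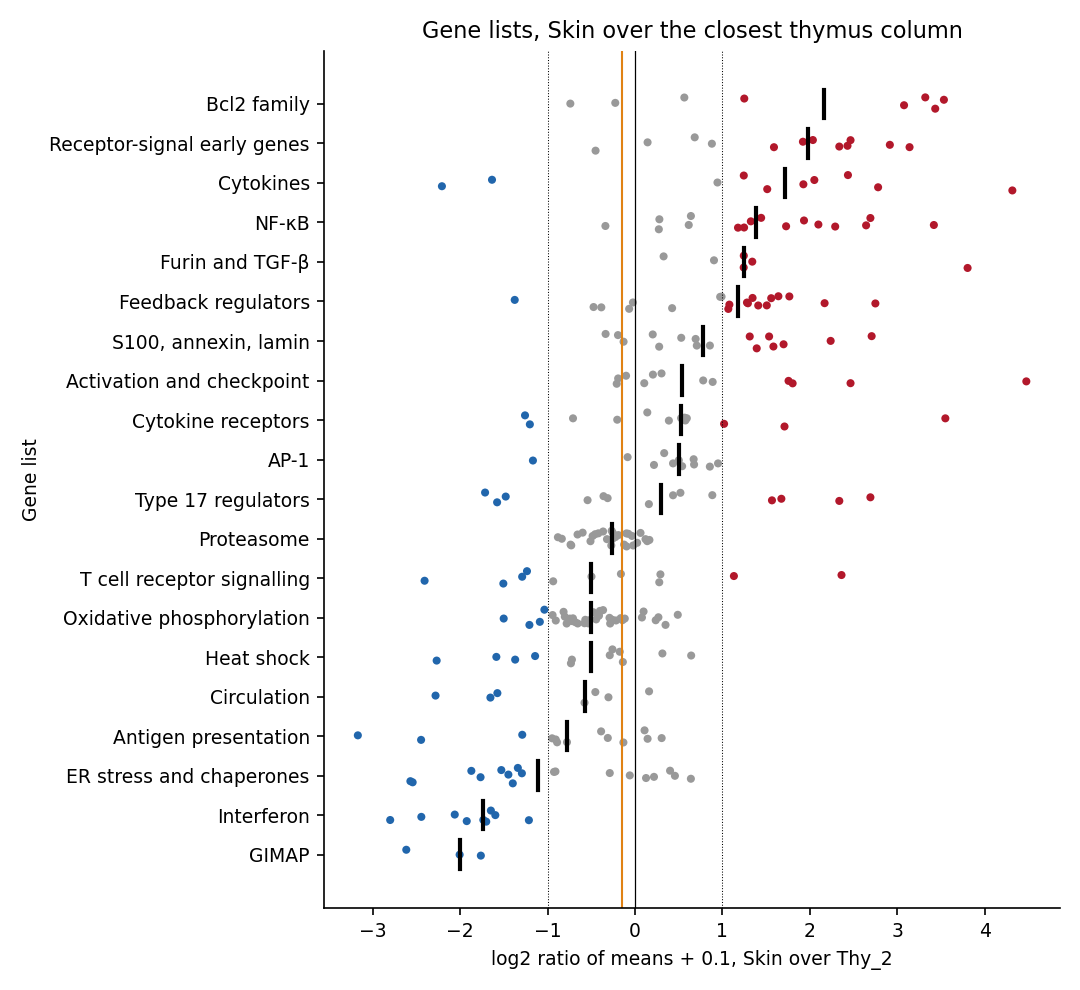
The log2 ratio of mean + 0.1 in Skin over Thy_2 for the measured members of 20 gene lists, ordered by list median (black bar); red and blue points are at least 2-fold higher and lower in Skin, dotted lines mark 2-fold, and the orange line marks the median over 3006 genes, −0.15. Bcl2 family, early, cytokine and NF-κB genes lie to the right, with medians between 1.38 and 2.16 (the cluster markers included, and Cflar in the Bcl2 list), and GIMAP and interferon genes to the left, with medians of −2.01 and −1.73.

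Several of the most abundant transcripts were also above all 7 columns. Apart from mitochondrial and ribosomal protein genes, the most abundant transcripts of Skin were Malat1, Crip1, Fth1 and Tmsb4x. Crip1, a LIM-domain protein, stood at 197 in Skin, 60.5 in Thy_2, 56.1 in pLN_1 and 89.8 in pLN_2. Fth1, the ferritin heavy chain, stood at 179 in Skin, 44.6 in Thy_2, 14.0 in pLN_1 and between 11.6 and 39.8 in the others, whereas the light chain Ftl1 was not called (39.6 in Skin and 29.3 in Thy_2). Srgn, the proteoglycan of secretory granules, stood at 53.6 in Skin, 15.4 in Thy_2 and between 5.51 and 14.2 elsewhere. Of 16 S100, annexin and related genes 7 were higher than in Thy_2 and none lower (median 0.78), whereas against pLN_1 3 were higher and 1 lower (median 0.29). Among the 7 were Lmna, a lamin of the nuclear envelope, at 21.1 in Skin and 6.96 in Thy_2, and Anxa1 at 2.50 and 0.298.

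The Vγ4 library came from ear skin digested in the same way, and the counts of the 2 skin libraries were set side by side for the genes that were highest in Skin. The skin Vγ6 library and the Skin column hold nearly the same values, and the 166 genes were chosen for being high there. That choice favours ratios above 1, so the counts below describe these genes and support nothing about them. Over all genes with at least 50 CPM (counts scaled to a library total of 1000000) in either skin library, 49 of 2628 were at least 2-fold higher in Vγ6 than in Vγ4 cells (1.86%) and 70 at least 2-fold lower (2.66%), with an exact 95% interval of the ratio, for counting error only, that left out 1. Of the 166 genes 161 could be compared, and 18 were higher and 2 lower in Vγ6 cells, Hbb-bs, an erythroid gene, among the 18; the median ratio was 1.26, against 1.05 over the 2612 genes of the table that reached 50 CPM. For most of these genes the 2 skin subsets thus lay within 2-fold of each other.

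Furin had 1917 CPM in skin Vγ6 cells and 1623 CPM in skin Vγ4 cells (ratio 1.18, 1.11 to 1.26), and Sdc4 had 996 and 821 CPM (ratio 1.21, 1.11 to 1.32). Bcl2a1b had 3742 CPM in Vγ6 and 1298 CPM in Vγ4 cells (ratio 2.88, 2.73 to 3.04). Bcl2a1a had 534 and 60.5 CPM (ratio 8.83, 7.18 to 10.9), and Zeb2, a transcription factor, 135 and 15.5 CPM (ratio 8.69, 5.75 to 13.5). Il17f was higher in Vγ4: 1009.5 CPM in Vγ6 and 3095 CPM in Vγ4 cells (ratio 0.33, 0.30 to 0.35). Of the 3 markers, Bcl2a1b was thus at least 2-fold higher in the skin Vγ6 library, Il17f at least 2-fold lower, and Furin within 2-fold. In the Vγ6 library 1 cell held 94 of the 801 Il17f UMIs, and the intervals take UMIs as independent. The split of reads among the A1 copies is uncertain, and so are the ratios of Bcl2a1a and Bcl2a1b. The Vγ4 library held more keratinocyte and neutrophil RNA than the Vγ6 library did (45.4 CPM of keratinocyte markers in Vγ6 and 1176 in Vγ4, and 0 and 213 CPM of neutrophil markers). Dendritic and myeloid markers went the other way, at 936 CPM in Vγ6 and 264 CPM in Vγ4. So did erythroid markers, at 115 CPM in Vγ6 and 1.55 CPM in Vγ4. The part of such RNA in the ratios was not tested.

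**Figure D5:**
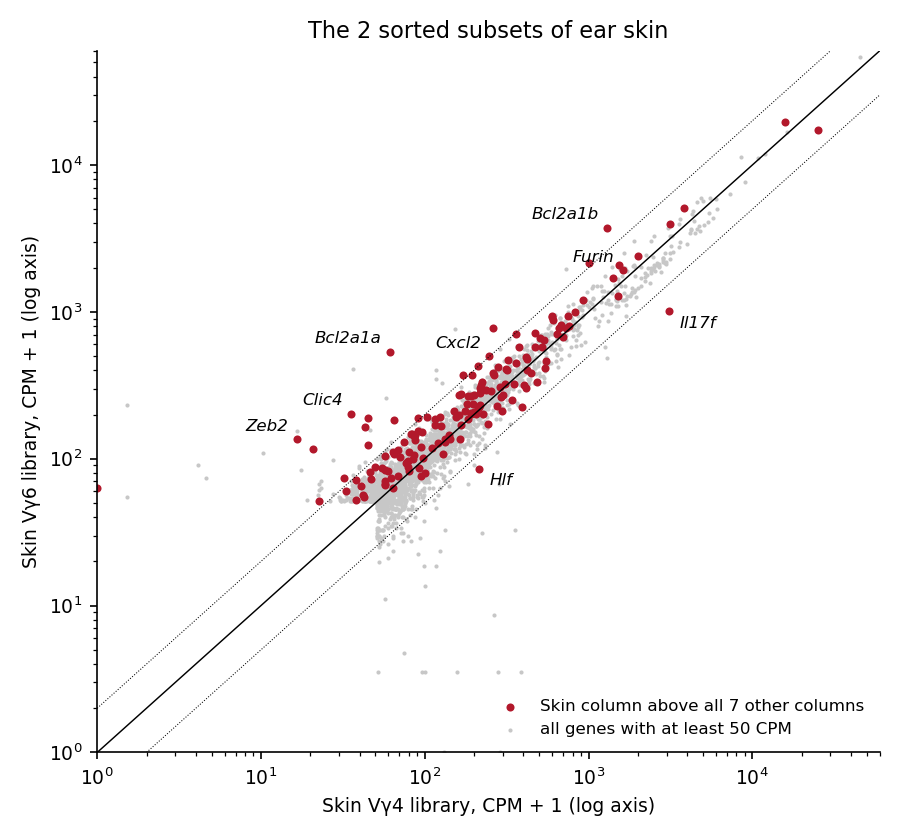
CPM plus 1 in the skin Vγ6 library (vertical) against the skin Vγ4 library (horizontal), on log axes, for all genes with at least 50 CPM in either (grey) and for 161 genes whose Skin column was above all 7 others (red); lines mark equal values and 2-fold. Bcl2a1a, Clic4 and Zeb2 lie above the 2-fold lines and Il17f and Hlf below them, while Furin lies near the line of equality; the red point on the left edge is Hbb-bs, with 0 UMIs in Vγ4 cells.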

How the data were processed

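The table of mean expression gave 8 Vγ6 clusters by 10721 genes as mean expression computed by the authors; each deposited column sums to 10000, which was checked on the values, and how cells were chosen, clustered or averaged is not given in the sources used here. The deposited matrices held raw UMI counts of 27998 genes for the 5 libraries. Cell Ranger 2.0, Seurat 2.3 and the build mm10 are named in the submitters' processing notes, without a role. The authors' marker table was not used.

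Ratios were log2((a + 0.1)/(b + 0.1)). A gene was called with a ratio of at least 2-fold and at least 0.5 per 10000 in the higher column; a gene above (or below) all 7 others met this against the highest (or lowest) of them. In the libraries, barcodes with at least 200 genes and at most 10% mitochondrial UMIs were kept, with no doublet caller, and summed per library, giving 687 cells and 793463 UMIs for skin Vγ6, 1178 and 1933221 for skin Vγ4, 1458 and 4210564 for lymph node Vγ6, and 2517 and 6607432 for thymus Vγ6. Libraries shared between 2 and 13 barcodes a pair. Intervals were exact (conditional binomial for ratios, Clopper-Pearson for shares) and cover counting error only. No p-value was computed, since no group had a replicate.

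The column, the 38 gene lists and the tests were chosen with earlier results of these data known. Genes were named by rule (the 15 highest and 15 lowest against Thy_2 and against all 7 columns, the 15 most abundant, the 3 markers and the 4 largest ratios of each list, and list members that were not called); others were named after their values had been seen, among them Tnf, Tnfsf11, Nfkb1, Nfkbia, Tmem176a, Blk, Cflar, Satb1, Foxo1, Il7r, Cd3e, Vps8, Tnfaip3, Clic4, Hlf and the genes that differed between column and library. Gene models without a name were left out, and the values of some list members are not reported here. Calling was tested on simulated tables. Analyses used Python 3.11.15, numpy 2.4.6, pandas 2.3.3 and scipy 1.17.1. Alternatives covered the pseudocount, the level minimum, the scaling, the thymus column, the library mean in place of the column, the CPM minimum and, added after the data had been seen, leaving out each other column and leaving the cluster's markers or all A1 copies out of the lists.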

Additional observations from a re-analysis of the deposited data

How the results depend on the processing

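No paired analysis was possible because each group had 1 library and the table gives 1 mean per cluster. Counts by size depend on the pseudocount and the level minimum, which act on low genes. In the order higher and lower than Thy_2, above and below all 7 columns, and higher and lower than pLN_1, the counts were 173, 146, 105, 16, 305 and 359 with a pseudocount of 0.5 per 10000, and 134, 96, 90, 9, 211 and 207 with a minimum of 2 per 10000. With a minimum of 0.2, 655 genes were lower than Thy_2, 159 below all columns and 1306 lower than pLN_1. Without a minimum, 519 were higher and 771 lower than Thy_2, 176 were below all columns, and 763 were higher and 1498 lower than pLN_1. Centring log ratios on their median, a shift of 0.15 for Thy_2, left 49 genes below all columns and 502 lower than pLN_1, and leaving out ribosomal protein and mitochondrial genes gave 144 below all columns; the causes were not tested. At a minimum of 20 CPM, 158 genes were higher and 212 lower in skin Vγ6 than in skin Vγ4 cells.

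With Thy_4 in place of Thy_2 the direction of 9 named genes turned, with log2 ratios of −4.16 for Ccl5 (and for the chemokine list), −1.50 for Gzmc, −0.77 for Lgals3, −0.46 for Hist1h2ap, −0.44 for Il21r, 0.35 for Ly6a, 0.47 for Hbegf, 1.30 for Il17re and 2.27 for Tmem176b. With the mean of the 5 thymus columns they were −1.94 for Ccl5 (and the chemokine list), −1.41 for Hist1h2ap, 0.24 for Il17re and 0.26 for Tmem176b. The median of the lipid list turned to 0.56 with a minimum of 0.2 and to 0.18 with none. With 1 other column left out, 169 to 205 genes were above and 95 to 118 below the rest. With the library mean in place of the column, 335 genes were higher and 405 lower than Thy_2, and 163 of 177 named genes kept their call. The depth of the skin Vγ6 library, 793463 UMIs, limits genes under about 0.5 per 10000, or 39.7 UMIs.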

Other observations

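Some of the genes that were extreme in Skin are neighbours in the genome. Of the 166 genes above all 7 columns, 21 had another of the 166 within 200 kb, and of the 91 below all columns 13 had another of the 91, in the GENCODE annotation of GRCm38. The pairs above include Il17a and Il17f on chromosome 1, Man2a2 and Furin on chromosome 7, Crip1 and Crip2 on chromosome 12, and Tnfsf9 and Tnfsf14 on chromosome 17. Those below include Gimap1, Gimap6 and Gimap9 on chromosome 6 and Ms4a4b and Ms4a6b on chromosome 19. The gap was 17210 bases between Man2a2 and Furin, 42650 bases between Il17a and Il17f and 49457 bases between Ms4a4b and Ms4a6b. These genes were chosen for their extremes, and no chance level was computed.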
